A study of Mus musculus with 10 samples.

Results

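The 34 genes described here activate long-chain fatty acids and break them down by beta-oxidation. They were chosen by name, each as the row of the deposited table that carries its symbol, and all 34 of 34 symbols matched 1 of the 56748 rows. All 34 were among the 14270 genes with enough counts to test. RNA-seq measured them in primary adipocytes from 5 control libraries and 5 Ad-Fam20c–KO libraries, called KO below. Control cells carried the Fam20c-flox alleles alone, and KO cells carried Fam20c-flox with Adipoq-Cre, so that both groups share the floxed gene. Fam20c encodes a kinase of the secretory pathway, and the adiponectin promoter of Adipoq-Cre is active in differentiated adipocytes, so that cells of other types in a culture keep the gene. The cells were the stromal vascular fraction of inguinal fat from male mice 6 to 8 weeks old. They were differentiated for 6 to 8 days, in stages of 48 hours with IBMX, dexamethasone, insulin and rosiglitazone, then with insulin and rosiglitazone, then with insulin alone. Rosiglitazone, an agonist of PPARG, was thus given to both groups.

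As background, a long-chain fatty acid is first joined to coenzyme A by an acyl-CoA synthetase, and the carnitine shuttle then carries it into the mitochondrion. There, each turn of beta-oxidation runs through dehydrogenation, hydration, a second dehydrogenation and thiolytic cleavage, and shortens the chain by 1 acetyl-CoA. Peroxisomes run a related cycle that begins with an oxidase, handles very long and branched chains and does not feed the electron transfer flavoprotein. In white adipocytes most fatty acid is stored as triglyceride, and beta-oxidation is better known from brown and beige adipocytes. By the place of the protein, the genes were sorted into 22 mitochondrial, 4 peroxisomal and 4 found in both organelles. The other 4 of the 34 are acyl-CoA synthetases of membranes, kept as a group by function and not by place.

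Total counts ran from 18949106 to 26237825 per library. Values below are CPM, that is counts scaled to a common library size after TMM normalization, each mean is given with its SD between libraries, and fold changes are on the log2 scale. Genes were tested by quasi-likelihood in edgeR, p-values were adjusted by Benjamini and Hochberg's method over the 14270 genes, and a gene is said to have risen or fallen where the adjusted p was under 0.05. Nothing in the labels says that the 5 libraries of a group came from separate mice, so the p-values measure the spread between these libraries. Fam20c itself was at 8.86 to 11.9 CPM in control and 6.65 to 7.74 CPM in KO libraries, with a log2 fold change of -0.49 (adjusted p = 0.0137, edgeR), and its count covers the whole gene, floxed exons included. Libraries control 4 and KO 1 stood apart from the other 8 on the leading principal component. Control 4 was the lowest of its group for 19 of the 34 genes and KO 1 for 21 of the 34. Control 4 was also the highest of its group for 9 of the 34, and KO 1 for 1. Summed markers of endothelial cells (20 genes) were at 229 to 273 CPM in control and 108 to 149 CPM in KO libraries, and 17 of the 20 fell. Summed adipocyte markers (16 genes) were at 46562 to 48126 CPM in control and 48767 to 50987 CPM in KO libraries, and 0 of the 16 passed the test, with 5 at an unadjusted p under 0.05 (edgeR). In such bulk samples fewer cells of a type and less RNA per cell cannot be told apart.

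Of the 34 genes, 2 rose in KO adipocytes, Pdk4 and Acot13, and 0 fell. Over all genes tested, 0.308% were higher and 1.86% lower by the same rule. Both that rose are mitochondrial, and neither catalyses a step of the cycle. At an unadjusted p under 0.05 edgeR gave 8 higher genes and 1 lower, Cpt1a, and DESeq2 and limma voom also called 0 lower. The 34 genes together moved little, with a median log2 fold change of 0.060 against -0.0008 over all genes tested. The fold change was above 0 for 27 of the 34, against 49.7% of all genes. An unadjusted p under 0.05 was reached by 9 of the 34, against 11.9% of all genes, and without direction the median size of the change was 0.068 for the 34 genes and 0.072 for all genes. The 34 genes therefore lay mostly on one side of 0, while their median distance from it was no larger than that of all genes. This tilt was not particular to them, since 13 of the 16 adipocyte markers also lay above 0, with a median log2 fold change of 0.063. In 5 of the 34 genes each KO library lay above each control library, against 1.31% of all genes, and the 5 were Pdk4, Acot13, Echs1, Hadhb and Acadvl. In 0 of the 34 did each KO library lie below each control library, against 2.66% of all genes.

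**Figure D1:**
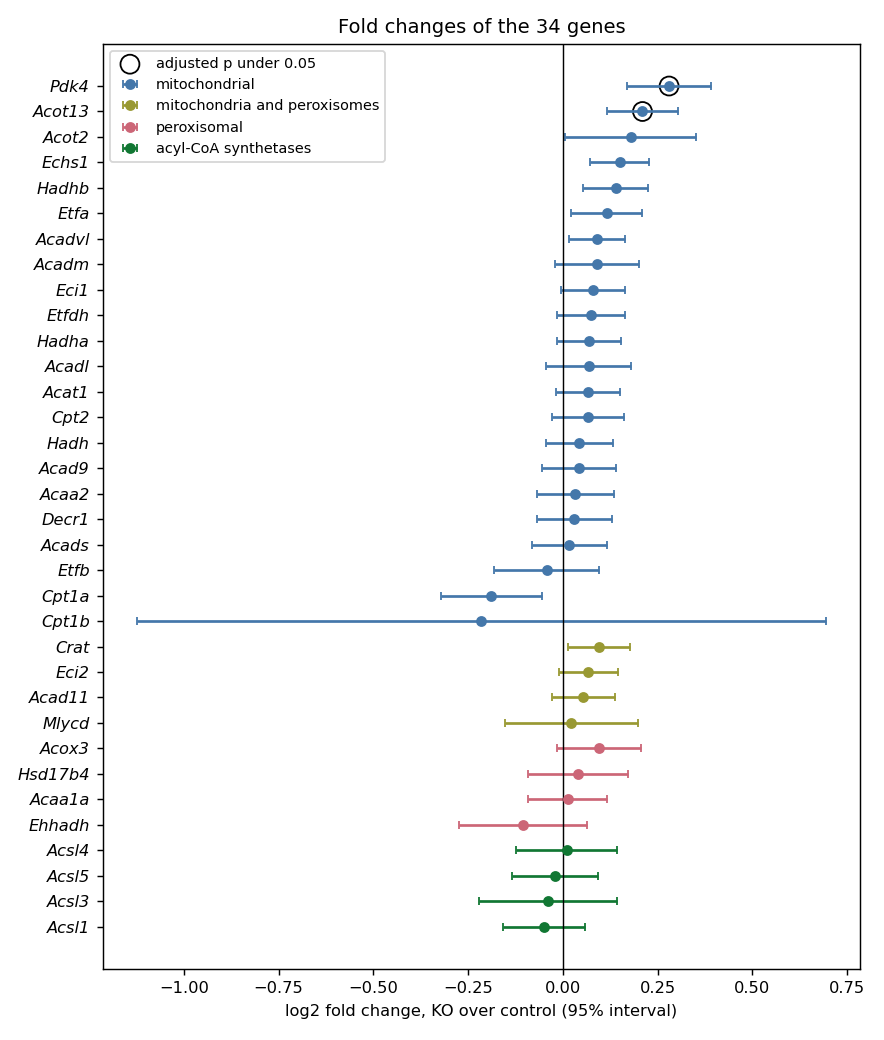
Log2 fold change of KO over control for the 34 genes (points) with its 95% interval (bars). Genes are grouped by the place of the protein, with the acyl-CoA synthetases as a group of their own, and sorted within each group. Rings mark Pdk4 and Acot13, which passed the adjusted limit. Of the 22 mitochondrial genes 19 lie above 0, and the interval of Cpt1b is the widest because it rests on few counts.

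Pdk4 and Mlycd act on how much fuel enters oxidation, and Pdk4 had the largest fold change of the 34 genes while Mlycd had one of the smallest. Pdk4 (ENSMUSG00000019577.7, chromosome 6, 5483351 to 5496309, minus strand, GRCm38) encodes pyruvate dehydrogenase kinase 4, which shuts off pyruvate dehydrogenase and so spares glucose when fatty acids are burnt. It was at 375.8, 401.2, 341.1, 407.4 and 356.9 CPM in control libraries 1 to 5 and at 450.2, 483.6, 448.3, 450.8 and 453.7 CPM in KO libraries 1 to 5. The groups did not overlap, and control 3 was the lowest and KO 2 the highest library. The mean went from 376.5 ± 28.3 to 457.3 ± 14.8 CPM (SD, n = 5), and was thus 21.5% higher in KO cells. The log2 fold change was 0.28 (SE 0.052, adjusted p = 0.0117, edgeR). Per kilobase, Pdk4 made up 47.3% to 50.8% of the CPM of the 4 Pdk genes in control and 49.2% to 53.2% in KO libraries, ranges that overlap. Mlycd encodes malonyl-CoA decarboxylase, which removes malonyl-CoA, the inhibitor of carnitine palmitoyltransferase 1. Its log2 fold change was 0.02 (95% interval -0.15 to 0.20).

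The thioesterases hydrolyse acyl-CoA back to free fatty acid and coenzyme A. Acot13 (ENSMUSG00000006717.8, chromosome 13, 24817948 to 24831540, minus strand) encodes acyl-CoA thioesterase 13, which is bound to mitochondria. It was at 62.9, 64.2, 65.2, 71.9 and 66.4 CPM in control libraries and at 78.2, 76.9, 74.9, 78.7 and 73.7 CPM in KO libraries. The groups did not overlap, and control 4 was the highest of its group and KO 5 the lowest. The log2 fold change was 0.21 (SE 0.044, adjusted p = 0.0235, edgeR), and the mean rose from 66.1 ± 3.50 to 76.5 ± 2.14 CPM (SD, n = 5). Acot2, the thioesterase of the matrix, had a log2 fold change of 0.18 with adjusted p = 0.393 by edgeR. In KO 1 it was at 79.4 CPM, inside the control range of 77.6 to 96.7 CPM, while the other 4 KO libraries were at 98.3 to 105 CPM. Acot1 is a close copy of Acot2 and had 56 to 74 counts per library, so that fragments the counting could not place leave the value of Acot2 uncertain.

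**Figure D2:**
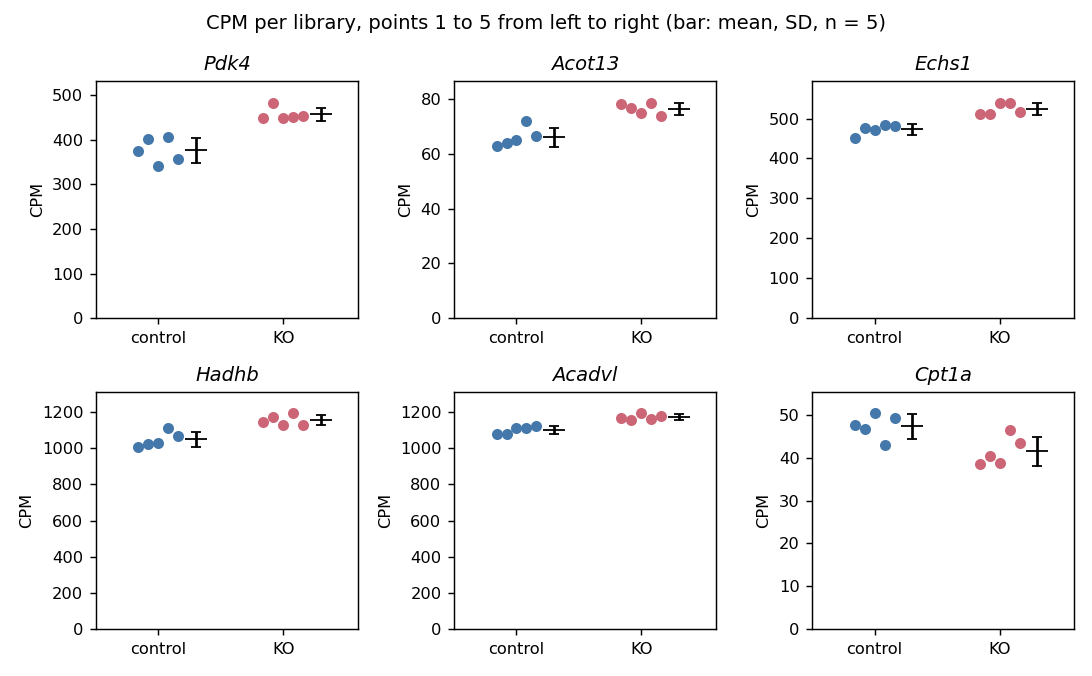
CPM in each library for the 5 genes whose KO libraries all lay above the control libraries and for Cpt1a, with points in the order of libraries 1 to 5 and bars for the mean and SD (n = 5). Every axis starts at 0, and the shifts are small against the level. Cpt1a is the gene of the 6 whose KO mean lies below its control mean.

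Next came the enzymes of the mitochondrial cycle. Echs1 (chromosome 7, 140105710 to 140116476, minus strand) encodes the short-chain enoyl-CoA hydratase of the second step. It was at 451.0, 476.5, 470.7, 483.4 and 481.3 CPM in control and at 511.9, 512.4, 539.8, 539.9 and 517.1 CPM in KO libraries. The groups did not overlap, yet the log2 fold change of 0.15 (SE 0.036) missed the limit, with adjusted p = 0.0545 by edgeR. Hadhb (chromosome 5, 30155248 to 30184593, plus strand) encodes the subunit of the trifunctional protein that carries the thiolase. It was at 1008, 1027, 1031, 1111 and 1070 CPM in control and at 1147, 1175, 1132, 1194 and 1130 CPM in KO libraries, and again the groups did not overlap. Its log2 fold change was 0.14 (SE 0.040, adjusted p = 0.115, edgeR). Acadvl (chromosome 11, 70010183 to 70015411, minus strand) encodes very long-chain acyl-CoA dehydrogenase, which starts the cycle on the longest chains. It was at 1079, 1077, 1112, 1113 and 1123 CPM in control and at 1170, 1155, 1194, 1164 and 1179 CPM in KO libraries. The log2 fold change of Acadvl was 0.09 (SE 0.034, adjusted p = 0.273, edgeR), and 42.9% of its exon bases overlap exons of Dvl2 on the opposite strand. Dvl2 had 260 to 372 counts per library, and the strand setting of the counting is not given in the sources used here. In a 2-sided exact permutation test of log2 CPM over every way to split the libraries 5 against 5, run for each of the 34 genes, the unadjusted p was 0.00794 for each of the 5 genes without overlap. That is the smallest p that 5 against 5 can give and follows from the lack of overlap, so it adds nothing to it. For the other genes the p ran from 0.0238 for Crat and Eci2 to 0.889 for Acsl4.

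Hadha (chromosome 5, 30118304 to 30155162, minus strand), which encodes the other subunit of the trifunctional protein, had a log2 fold change of 0.07 (95% interval -0.01 to 0.15), and its groups overlapped. The ratio of Hadhb to Hadha CPM was 0.992 to 1.08 in control and 1.06 to 1.12 in KO libraries. The 2 genes start head to head, with 85 bases between their annotated ends. The bases upstream of Hadhb, Pdk4, Echs1 and Acadvl are shown because these are the genes without overlap between groups that have an entry in the RefSeq promoter table. They were taken from windows of 250 bases before to 50 bases after a RefSeq start on GRCm38.p6, without the bases that an annotated exon covers. Hadhb is read on the plus strand (chr5:30155163-30155247) and fills the gap to Hadha, and the other 3 are read on the minus strand, Pdk4 at chr6:5496310-5496528, Echs1 at chr7:140116477-140116671 and Acadvl at chr11:70015429-70015678. Capitals mark AGGTCA, the core letters bound by PPAR and other nuclear receptors.
Hadhb: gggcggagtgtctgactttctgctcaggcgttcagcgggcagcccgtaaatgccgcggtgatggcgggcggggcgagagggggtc
Pdk4: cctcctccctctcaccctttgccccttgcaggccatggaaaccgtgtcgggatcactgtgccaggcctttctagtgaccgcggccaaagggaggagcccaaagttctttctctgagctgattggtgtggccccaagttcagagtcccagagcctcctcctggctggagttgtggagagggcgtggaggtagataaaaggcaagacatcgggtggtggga
Echs1: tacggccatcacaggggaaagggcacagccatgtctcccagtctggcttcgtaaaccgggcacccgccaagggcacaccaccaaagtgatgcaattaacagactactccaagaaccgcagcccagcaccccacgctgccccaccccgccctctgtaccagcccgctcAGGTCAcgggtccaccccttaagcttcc
Acadvl: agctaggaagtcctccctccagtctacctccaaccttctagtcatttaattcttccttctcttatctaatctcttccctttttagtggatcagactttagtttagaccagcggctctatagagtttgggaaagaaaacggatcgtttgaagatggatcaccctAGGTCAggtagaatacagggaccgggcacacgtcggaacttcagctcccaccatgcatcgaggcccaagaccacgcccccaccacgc
AGGTCA lies at position -83 from the RefSeq start of Echs1 and at position -87 from that of Acadvl. On either strand (AGGTCA or TGACCT), it occurs in 4 of the 27 windows of the 26 genes with an entry, those of Acadm, Acadvl, Cpt1a and Echs1, against 16.3% of the 32851 windows of all genes. The fuller PPAR element, a repeat with 1 base between (AGGNCANAGGNCA or TGNCCTNTGNCCT), was found in 0 of the 27 windows and in 0.381% of all windows. The element of the oestrogen-related receptors (TCAAGGTCA or TGACCTTGA, which contains the core letters) was found in 0 of the 27 and in 0.423% of all. Each absence concerns these letters in these windows alone. The median GC content was 60.7% in the 27 windows and 52.7% in all windows. Decr1, Acaa2, Acad9, Acot13, Hsd17b4, Acat1, Cpt1b and Crat have no entry in the table.

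All 6 acyl-CoA dehydrogenases, which catalyse the first step for chains of different length, had a log2 fold change above 0, from 0.02 for Acads to 0.09 for Acadvl. By edgeR 0 of the 6 passed the test, with 1 at an unadjusted p under 0.05, and DESeq2 called Acadvl alone. Acadl, the long-chain dehydrogenase and the highest of the 6 per kilobase of exon, was at 866.7, 864.0, 859.5, 769.0 and 874.8 CPM in control and at 803.5, 892.9, 912.5, 944.4 and 884.8 CPM in KO libraries. Control 4 and KO 1 were the low libraries of their groups, and the groups overlapped (log2 fold change 0.07, 95% interval -0.04 to 0.18). Acadm, the medium-chain dehydrogenase, showed the same low libraries, at 1242 CPM in control 4 and 1298 CPM in KO 1. The 6 genes for hydration to thiolysis, Hadha, Hadhb, Echs1, Hadh, Acaa2 and Acat1, were also all above 0, with a median of 0.068. By edgeR 0 of the 6 passed, with 2 at an unadjusted p under 0.05, and DESeq2 called the same 2, Hadhb and Echs1. Acaa2, which encodes the mitochondrial 3-ketoacyl-CoA thiolase, was at 797.2, 848.6, 863.4, 800.4 and 883.9 CPM in control and at 805.4, 842.0, 837.7, 891.2 and 912.0 CPM in KO libraries, almost the same range (log2 fold change 0.03). Decr1, Eci1 and Eci2, which rearrange the double bonds of unsaturated chains, had log2 fold changes of 0.03, 0.08 and 0.07. Decr1 was at 516.6, 522.0, 543.7, 488.6 and 542.7 CPM in control and at 500.9, 534.1, 526.6, 577.3 and 529.5 CPM in KO libraries, so that the groups overlapped widely.

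Electrons from the acyl-CoA dehydrogenases pass to the electron transfer flavoprotein, a dimer encoded by Etfa and Etfb, and on to its dehydrogenase, encoded by Etfdh. Etfa (chromosome 9, 55454508 to 55512243, minus strand) was at 630.8, 649.5, 645.9, 623.4 and 649.5 CPM in control and at 641.3, 699.8, 695.5, 748.2 and 680.8 CPM in KO libraries. KO 1 alone lay in the control range, and the log2 fold change of 0.12 had adjusted p = 0.267 by edgeR. Etfdh had a log2 fold change of 0.07 and Etfb one of -0.04, and neither passed. Per kilobase, Etfa stood 16.9 to 21.1 times above Etfb across the 10 libraries. That ratio has a limit, since 58.2% of the exon bases of Etfb overlap an annotated gene on the same strand that had 0 counts in every library.

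In the carnitine shuttle, the outer and inner enzymes had fold changes of opposite sign, and neither Cpt1a nor Cpt2 passed the test. Cpt1a (chromosome 19, 3322334 to 3385733, plus strand) encodes the liver form of carnitine palmitoyltransferase 1, the regulated entry step that malonyl-CoA inhibits. It was at 47.6, 46.7, 50.5, 43.0 and 49.2 CPM in control and at 38.6, 40.5, 38.8, 46.5 and 43.5 CPM in KO libraries. KO 4 and KO 5 lay above control 4, which was the lowest control library. The log2 fold change was -0.19 (SE 0.062, 95% interval -0.32 to -0.06) with adjusted p = 0.188 by edgeR, the farthest below 0 of the 34 genes after Cpt1b. Without control 4 the groups of Cpt1a did not overlap, with a log2 fold change of -0.22 and adjusted p = 0.0703 by edgeR. Cpt2, the enzyme of the inner membrane, was at 348.3, 363.8, 344.1, 332.0 and 348.9 CPM in control and at 341.0, 364.8, 348.1, 386.2 and 378.6 CPM in KO libraries. Its log2 fold change was 0.07, with a 95% interval of -0.03 to 0.16 that includes 0. The ratio of Cpt2 to Cpt1a per kilobase of exon, chosen after its values were seen and so not tested, was 21.8 to 24.9 in control and 26.5 to 28.8 in KO libraries, without overlap. Cpt1b, the muscle form, was close to the limit of detection, at 1.42, 0.862, 1.505, 0.822 and 0.211 CPM in control and 0.645, 0.834, 0.786, 0.412 and 1.43 CPM in KO libraries. It rested on 5 to 32 counts per library, and its 95% interval of -1.12 to 0.69 leaves large changes possible in either direction. Of its exon bases 81.4% overlap another gene on the same strand that had 0 counts in every library. The level of Cpt1b thus has the same limit as that of Etfb. Crat encodes carnitine acetyltransferase, which buffers acetyl-CoA. Its log2 fold change was 0.10 (95% interval 0.01 to 0.18, adjusted p = 0.304, edgeR).

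Of the acyl-CoA synthetases, Acsl1 (chromosome 8, 46471037 to 46536051, plus strand) held 87.7% to 90.4% of the CPM per kilobase of the 4 genes. It was at 3477, 3365, 3210, 3142 and 3385 CPM in control and at 3004, 3297, 3036, 3351 and 3329 CPM in KO libraries. The groups overlapped, with a log2 fold change of -0.05 (95% interval -0.16 to 0.06). Acsl3, Acsl4 and Acsl5 were each at 71.7 CPM or less in all libraries, with log2 fold changes of -0.04, 0.01 and -0.02. The sign of these 3 changed between settings and libraries left out. Counted by length of exon, Acaa2, Acadl and Acadvl stood highest of the 34 genes in control cells, at 553, 422 and 410 CPM per kilobase. Counted by length of coding sequence, Acsl1 and Acadm led, at 1581 and 1071 CPM per kilobase, so that the order depends on which length is used. At the other end, Cpt1a was at 6.20, Acox3 at 5.90 and Cpt1b at 0.286 CPM per kilobase of exon.

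The 4 peroxisomal genes gave 0 calls by edgeR or DESeq2 and 0 unadjusted p-values under 0.05. They had 3 fold changes above 0 and a median of 0.026. The 22 mitochondrial genes gave 2 calls by edgeR, 19 fold changes above 0 and a median of 0.069. Over all genes 0.308% rose by edgeR. Both calls, Pdk4 and Acot13, lie outside the cycle, so edgeR called 0 enzymes of either cycle. DESeq2 also called Acadvl, Hadhb and Echs1. The difference between 4 and 22 genes was not tested. Acox3 encodes the oxidase for branched chains, the first step of the peroxisomal cycle. It was at 69.2, 70.4, 63.0, 73.5 and 63.9 CPM in control and at 67.9, 74.4, 74.8, 70.9 and 75.3 CPM in KO libraries (log2 fold change 0.10, adjusted p = 0.514, edgeR). Ehhadh encodes the bifunctional hydratase and dehydrogenase for straight chains. It was at 105.6, 102.2, 99.7, 85.1 and 102.2 CPM in control and at 74.7, 99.1, 95.8, 94.9 and 95.4 CPM in KO libraries. With control 4 and KO 1 both low, the log2 fold change of Ehhadh was -0.10 (95% interval -0.27 to 0.06), and without control 4 its groups did not overlap. Hsd17b4, the bifunctional enzyme for branched chains and the highest of the 4 per kilobase, was at 563.5, 554.8, 533.4, 474.2 and 536.2 CPM in control and at 479.5, 555.3, 573.9, 585.8 and 541.1 CPM in KO libraries. Again control 4 and KO 1 were the low libraries, and the log2 fold change was 0.04. Acaa1a, a peroxisomal thiolase, was at 122.5, 125.0, 134.4, 133.6 and 131.0 CPM in control and at 135.2, 128.9, 138.6, 118.2 and 131.2 CPM in KO libraries (log2 fold change 0.01). Its close copy Acaa1b had 5986 to 8152 counts per library, so that the split of fragments between them is uncertain. The 4 genes of both organelles, Crat, Eci2, Acad11 and Mlycd, were all above 0, with a median of 0.061.

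Compared within libraries, the distance between the mitochondrial and the peroxisomal genes did not separate KO from control. The mean log2 CPM of the 21 mitochondrial genes other than Cpt1b was 8.31 to 8.38 in control and 8.36 to 8.49 in KO libraries. The difference between that mean and the mean of the 4 peroxisomal genes was 1.11 to 1.19 in control and 1.16 to 1.29 on the log2 scale in KO libraries, and the groups overlapped. All 34 genes together took 1.54% to 1.69% of the counts of a control library and 1.57% to 1.77% of a KO library. The lowest share of each group belonged to control 4 and KO 1.

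**Figure D3:**
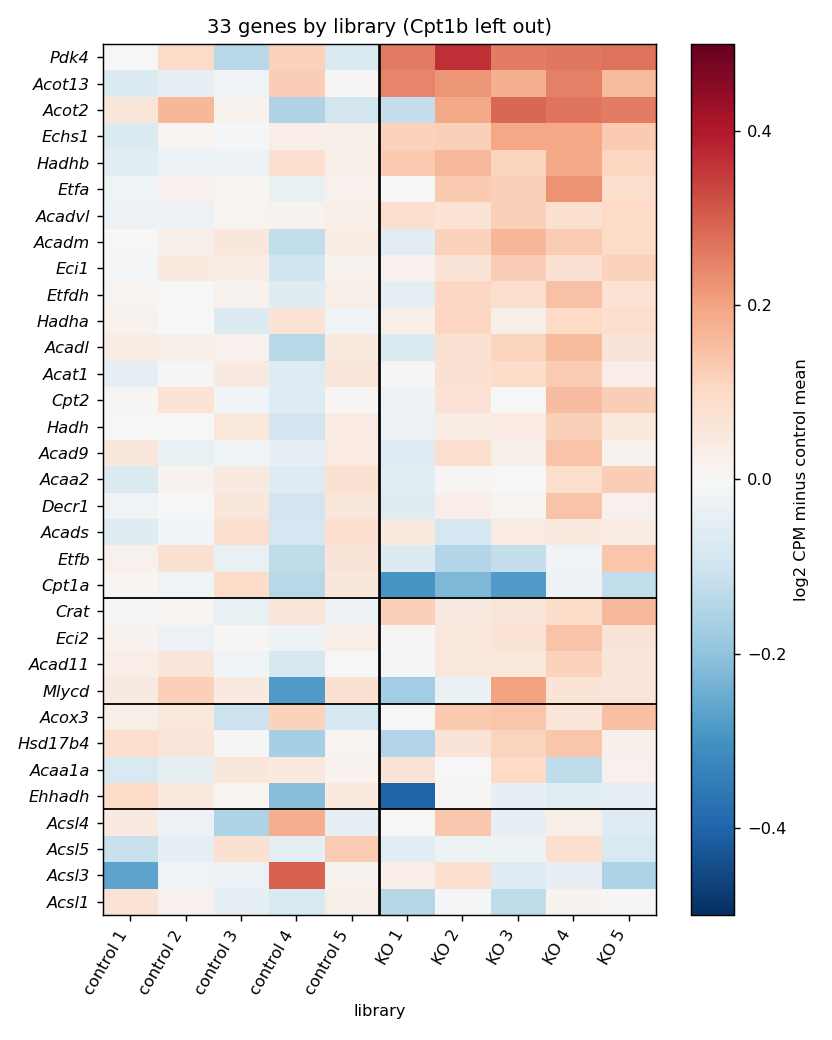
Log2 CPM of 33 genes (rows) in the 10 libraries (columns) minus the gene's mean over the control libraries. Horizontal lines separate mitochondrial genes, genes of both organelles, peroxisomal genes and acyl-CoA synthetases. Red is higher and blue lower, and the columns of control 4 and KO 1 are the bluest of their groups, while KO 4 is the highest of its group for 17 of the 34 genes.

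Control 4 and KO 1 had stood apart in these same data, so the counts without them are a description and not further support. Leaving out a KO library that was low for many of these genes favours KO libraries above control. Without control 4 and KO 1, the KO libraries lay above the control libraries in 15 of the 34 genes, against 4.96% of all genes in the same 4 against 4 libraries. They lay below in 2, Cpt1a and Ehhadh, against 5.79% of all genes. In that fit Pdk4, Acot13, Echs1 and Hadhb passed the test, 4 of the 34, against 1.01% of 14340 genes higher. The median log2 fold change of the 34 genes was then 0.065. Pdk4 passed with each of the 10 libraries left out in turn, at log2 fold changes of 0.25 to 0.31. Acot13 passed in 4 of the 10, at 0.19 to 0.25, with adjusted p-values from 0.00372 to 0.0725 by edgeR.

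Marker sums differed between the groups as well, and their part in these results was tested only by the covariate given here. The endothelial and the adipocyte sums did not overlap between groups, but the adipocyte sum rested on Fabp4, a fatty acid binding protein at a mean of 20805 CPM in control and 22552 CPM in KO libraries. Without Fabp4 the sum of the other adipocyte markers was 25817 to 27584 CPM in control and 26441 to 27892 CPM in KO libraries, and the groups overlapped. Among the KO libraries, KO 1 had the highest endothelial sum, 149 CPM, and the lowest mean of the 21 mitochondrial genes, and KO 4 had the lowest endothelial sum, 108 CPM, and the highest mean. With Cpt1b included, KO 5 had the highest mean. Among the control libraries, control 4 had the highest endothelial sum, 273 CPM, and the lowest mean, 8.31, but control 1, with the lowest sum, 229 CPM, had the next lowest mean, 8.34, and control 5, at 271 CPM, the highest, 8.38. Of the 10 progenitor markers 5 fell, with a sum of 6496 to 8279 CPM in control and 5522 to 6401 CPM in KO libraries. Of the 10 macrophage markers 0 passed, also without adjustment. The 9 brown and beige markers tested had 6 fold changes above 0 and 3 below, with a median log2 fold change of 0.028. Of these 9 only Ucp1, which uncouples respiration to make heat, rose (log2 fold change 0.87, adjusted p = 0.0284, edgeR). Muscle markers, of which 2 of 10 had enough counts to test, summed to 7.77 to 12.6 CPM. With the mean of the endothelial markers as a covariate, 0 of the 14270 genes passed the adjusted limit by edgeR, 1667 had an unadjusted p under 0.05, 7 of the 34 among them, and 10 of the 34 had a fold change above 0. That mean was 2.97 to 3.22 in control and 1.89 to 2.31 on the log2 scale in KO libraries, so that the genotype and the endothelial markers cannot be told apart in this design.

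**Figure D4:**
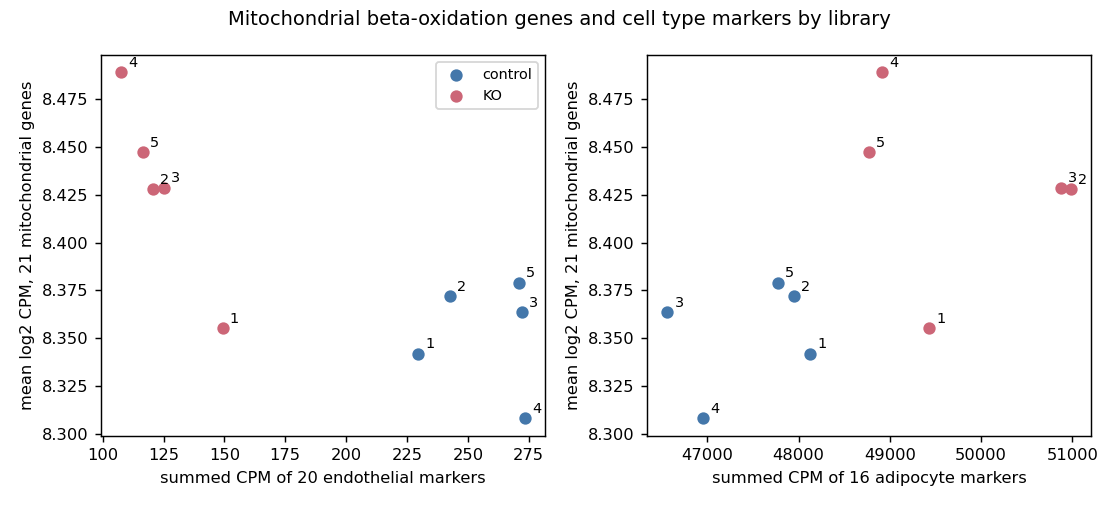
Mean log2 CPM of the 21 mitochondrial genes in each library against the summed CPM of 20 endothelial markers (left) and of 16 adipocyte markers (right), with control in blue, KO in red and numbers for the libraries. Endothelial sums are 229 to 273 CPM in control and 108 to 149 CPM in KO libraries, and on the vertical axis KO 1 lies within the control range.

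Other genes of the pathway also lay mostly above 0, with few calls. In 5 further lists, 109 of 119 genes were tested, 1 rose and 0 fell by edgeR, 12 had an unadjusted p under 0.05, 76 were above 0 and the median log2 fold change was 0.046. Over all genes tested, 0.308% rose, 1.86% fell, 11.9% had an unadjusted p under 0.05 and 49.7% were above 0. The unadjusted count of the lists is thus close to that share. The gene that rose was Prkab2, which encodes a regulatory subunit of AMP-activated protein kinase, at 79.1 to 94.9 CPM in control and 96.8 to 113 CPM in KO libraries (log2 fold change 0.25, adjusted p = 0.0410, edgeR). Of 30 other mitochondrial genes of fatty acid and acyl-CoA metabolism, 23 were above 0, with a median of 0.076. Of 29 other peroxisomal genes, 16 were above 0, with a median of 0.017, and of 16 peroxins, which build the organelle, 12 were above 0, with a median of 0.031. Phyh, the peroxisomal hydroxylase of branched phytanoyl-CoA, had a log2 fold change of 0.22 (adjusted p = 0.0506, edgeR) and was named after its value was seen. The 26 regulators, Prkab2 among them, had 20 above 0 and a median of 0.051, and the 8 other genes of malonyl-CoA and pyruvate dehydrogenase control 5 above 0 and a median of 0.032. Transcription factors and coactivators that drive these genes did not pass. The log2 fold change was 0.14 for Ppara (adjusted p = 0.536), 0.10 for Pparg (adjusted p = 0.218), 0.19 for Ppargc1a (adjusted p = 0.484) and 0.06 for Esrra (adjusted p = 0.698), all by edgeR.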

How the data were processed

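The data were 5 control and 5 KO RNA-seq libraries, and the labels do not say whether each is a separate culture. For its heatmap of control and KO adipocytes the paper states fewer samples per group. The authors prepared the libraries with SMARTer v4 reagents and Nextera XT, aligned read pairs to GRCm38.p6 by STAR v2.6.0c, ran featureCounts v1.6.2 on genes and deposited raw counts of 56748 genes, 1 column a library. Columns of other samples numbered 0. The strand setting is not given in the sources used here, so overlapping genes may share fragments, and 15 of the 34 genes overlap exons of another gene.

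Counts were filtered (filterByExpr, minimum count 10), normalized by TMM and fitted without pairing with edgeR 4.0.16 in R 4.3.3. The SE was taken as the size of the log2 fold change over the root of F. Log2 CPM used a prior count of 2. Libraries of a group differed by more than sampling noise (chi-square per degree of freedom at least 3.29), and the biological coefficient of variation was 9.35%. Values rest on counting and on the spread between libraries, and low genes such as Cpt1b are the least precise. The fit was tested on simulated counts. Positions and lengths are those of GENCODE M21, and promoters those of RefSeq on GRCm38.p6.

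The 34 genes and all lists were chosen with earlier results of these data known. Values by library are given for genes that passed or did not overlap, the peroxisomal genes, Cpt1a, Cpt1b, Pdk4 and the highest gene per kilobase in each role. Protein sequences were not analysed here. Alternatives were DESeq2 1.42.0, limma 3.58.1 voom with sample weights, other size factors and filters, a replicate block, an endothelial covariate, each library left out, control 4 and KO 1 left out together, a prior count of 0.5 and, chosen after seeing the data, coding length. Control 4 and KO 1 were likewise known to stand apart from these same data.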

Additional observations from a re-analysis of the deposited data

Results flagged for a closer look

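A library far from the other 4 of its group, by the gap to its nearest neighbour as a share of the group's range, was found in 8 of the 68 groups of 5 examined (34 genes in 2 groups), where the limit was 0.71. Chance flags about 1 in 20 groups, or 3.40 of 68. Control 4 and KO 1 gave 6 of the 8, all on the low side.

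In control 4, the share was 0.863 for Acadl (769 CPM against 859 to 875 in the others), 0.716 for Etfdh (487 against 509 to 518 CPM), 0.734 for Ehhadh (85.1 against 99.7 to 106 CPM) and 0.815 for Mlycd (69.0 against 86.6 to 91.2 CPM). In KO 1, it was 0.844 for Ehhadh (74.7 against 94.9 to 99.1 CPM) and 0.764 for Acot2 (79.4 against 98.3 to 105 CPM). In KO 2, it was 0.900 for Acads, on the low side (238 against 259 to 261 CPM), and 0.840 for Pdk4, on the high side (484 against 448 to 454 CPM).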

How the results depend on the processing

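Pdk4 passed under every setting but the endothelial covariate, where its adjusted p was 0.867 (edgeR). Beside 2 genes that rose, DESeq2 gave 5, limma voom 4, the fit without control 4 and KO 1 together 4, the replicate block 1 (Pdk4) and the endothelial covariate 0. With each library left out the number was 1 to 4, and it was 4 without control 4. Over all genes, those higher numbered 125 by DESeq2, 111 by voom, 145 without both libraries, 119 without control 4 and 21 with the block, against 44. Replicate numbers were taken as names only, since libraries of the same number correlated at -0.251 to 0.263 and 2 of 10 correlated best with their own number. Genes with all KO libraries above control numbered 15 without both libraries and 5 to 12 with each left out. Those with all below numbered 2 and 0 to 2. No such count could be made for voom, the block or the covariate. Without TMM the groups of Acadvl overlapped, while those of Pdk4, Acot13, Echs1 and Hadhb did not. An unadjusted p under 0.05 was reached by 5 of the 34 without TMM and by 6 with the block. DESeq2 and voom each gave 11, against 9 in the main fit.

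The endothelial covariate, which differs between the groups, left 10 fold changes above 0 and turned the median to -0.1648 for all 34 genes, -0.1815 for the mitochondrial and -0.3537 for the peroxisomal genes. It turned the log2 fold changes of Cpt2 (-0.34), Acadl (-0.35), Acadm (-0.20), Acad9 (-0.32), Acad11 (-0.24), Hadha (-0.11), Hadh (-0.17), Acaa2 (-0.16), Acat1 (-0.012), Eci1 (-0.043), Eci2 (-0.12), Decr1 (-0.24), Etfa (-0.19), Etfdh (-0.24), Acox3 (-0.15), Hsd17b4 (-0.56), Acot2 (-0.67), Mlycd (-0.46), Acsl3 (0.52), Acsl4 (-0.093) and Acsl5 (0.040). The median of the acyl-CoA synthetases turned to 0.0008 by voom, to 0.0018 without both libraries, and ran from -0.041 to 0.0066 with each library left out.

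Small fold changes turned sign elsewhere. By voom they were 0.015 for Acsl3, 0.015 for Cpt1b and -0.011 for Mlycd. Without TMM they were -0.011 for Acsl4, -0.0049 for Acads and -0.0093 for Acaa1a. Without both libraries they were 0.026 for Acsl3 and -0.0096 for Acads. With each library left out the range was -0.099 to 0.043 for Acsl3, -0.024 to 0.060 for Acsl4, -0.047 to 0.012 for Acsl5, -0.49 to 0.012 for Cpt1b, -0.0006 to 0.048 for Acads, -0.0078 to 0.046 for Acaa1a and -0.039 to 0.072 for Mlycd. The cause of these turns was not tested. In all, 586 of the fold changes under other settings kept sign and side of the limit, 9 lost the limit, 9 gained it and 41 changed sign.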
